A study of Mus musculus with 2 samples.

Results

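The chaperonin CCT, also called TRiC, is the chaperone of the eukaryotic cytosol that folds actin and tubulin, and it is encoded by the 8 subunit genes Tcp1, Cct2, Cct3, Cct4, Cct5, Cct6a, Cct7 and Cct8. All 8 were found in the deposited tables, out of 18510 annotated mouse genes with reads. They were chosen by name, and every transcript model that the authors assigned to 1 of these genes was counted. The libraries are long-read RNA sequencing of the left cerebral cortex of female B6CASTF1/J mice at 14 days of age, F1 hybrids between C57BL/6J and CAST/EiJ. The series has 1 group of 2 libraries, each from 2 µg of total RNA, with no treatment, second genotype or control group. The labels number the libraries as biological replicates 1 and 2, but replicate 1 may hold tissue pooled from more than 1 female, going by its entry, whereas the entry of replicate 2 names a single female. Both carry the same donor entry, which does not settle whether they share animals. With 1 group of 2 libraries, spread between animals could not be estimated. The tests below therefore set the libraries against each other with counting error as the only source of spread.

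CCT is built as a pair of stacked rings, each with 1 copy of every subunit around a central cavity. An unfolded protein enters the cavity, ATP hydrolysis closes a lid formed by the subunits themselves, and the protein folds inside. Prefoldin hands nascent actin and tubulin to CCT, phosducin-like proteins modulate it, and tubulin folding cofactors take over the tubulin subunits afterwards. Growing neurons need large amounts of actin and tubulin for axons, dendrites and synapses.

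Replicate 1 held 1072344 mouse reads and replicate 2 held 753520, of which the CCT genes took 2107 and 1521. Levels are given as RPM, the reads of a gene per 1000000 mouse reads of its library, and 1 read was worth 0.933 RPM in replicate 1 and 1.33 RPM in replicate 2. Markers of the labelled tissue were present. The summed level of 3 neuronal markers was 2826 and 2471 RPM, and that of 3 astrocyte markers was 6999 and 7269 RPM. Of 3 cerebellar markers, Pcp2 and Cbln3 had no read in either library, and the third, Car8, was at 11.2 and 17.3 RPM. Summed oligodendrocyte markers stood at 5385 and 3228 RPM and choroid plexus markers at 25.2 and 257 RPM. Of the 3 choroid plexus markers, Kl had no read in either library. The libraries thus differed in these summed levels, and the part of that difference in the CCT levels was not tested.

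Cct6a carried the largest departure from the annotation, and its sequences are shown first for that reason. GENCODE M21 places exons 10 and 11 of the model Cct6a-202 on either side of an intron at chr5:129794500-129844969 on the plus strand of mm10. Not 1 read used that intron. The leading chain of splice junctions used chr5:129794561-129844936 in its place, and a second chain used chr5:129794605-129844969. In the lines below, capitals mark exon 11 in the annotated join, and the first or last 2 bases of the intron in the others.
Cct6a-202, join of exons 10 and 11: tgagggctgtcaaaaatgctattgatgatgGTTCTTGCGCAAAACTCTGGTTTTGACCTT
Leading chain, end of exon 10 and start of the intron, chr5:129794546-129794575: gcatggctgaatactGTgttctttagtcag
Leading chain, end of the intron, chr5:129844907-129844936: atttattctggcttaaccctcaattcccAG
Second chain, end of exon 10 and start of the intron, chr5:129794590-129794619: agacaccatgcaaaaGTaaagtcttccttt
The unannotated intron of the leading chain therefore begins with GT and ends with AG, the usual ends of a spliceosomal intron. The intron of the second chain also begins with GT. Its last 2 bases lie in a stretch that no transcript sequence used here covers and were not read.

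On mm10 the genes lie on 8 different chromosomes: Cct7 at chr6:85451514-85468475, Cct6a at chr5:129786998-129846371, Cct4 at chr11:22990519-23003780, Tcp1 at chr17:12915701-12925067 and Cct3 at chr3:88297116-88321767 on the plus strand, and Cct5 at chr15:31590800-31601804, Cct8 at chr16:87483326-87495873 and Cct2 at chr10:117051001-117063814 on the minus strand. All 8 subunit genes were expressed well above the typical gene. None passed the test between the libraries, which few genes passed at all, 100 of 11339 (0.882%). The median level of the CCT genes was 220 RPM, against 30.9 RPM over the 11339 genes with 10 or more reads. The levels ranked between 290 and 1378 among the 18510 detected genes. In bulk tissue, a lower share of cells that express a gene and less RNA per cell cannot be told apart. A long read was counted as 1 RNA molecule whatever its length, so levels are not divided by length.

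Cct7, which encodes the eta subunit, was the most abundant, with 454 reads (423 RPM) in replicate 1 and 329 reads (437 RPM) in replicate 2. Cct6a, for the zeta subunit, had 350 reads (326 RPM) and 247 reads (328 RPM). Cct5, for the epsilon subunit, had 340 reads (317 RPM) and 219 reads (291 RPM). These were the 3 highest CCT genes in both libraries.

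Cct8, for the theta subunit, followed with 246 reads (229 RPM) in replicate 1 and 190 reads (252 RPM) in replicate 2. Cct4, for the delta subunit, had 210 reads (196 RPM) and 152 reads (202 RPM). Tcp1, the alpha subunit, from which TRiC takes its name, had 185 reads (173 RPM) and 154 reads (204 RPM). Cct4 and Tcp1 changed places between the libraries and their ranges overlapped.

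Cct2, for the beta subunit, had 162 reads (151 RPM) in replicate 1 and 128 reads (170 RPM) in replicate 2. Cct3, for the gamma subunit, was the lowest, with 160 reads (149 RPM) and 102 reads (135 RPM). As means the levels were 430 ± 9.37 RPM for Cct7, 327 ± 0.995 for Cct6a, 304 ± 18.7 for Cct5, 241 ± 16.1 for Cct8, 199 ± 4.16 for Cct4, 188 ± 22.5 for Tcp1, 160 ± 13.3 for Cct2 and 142 ± 9.79 for Cct3 (SD, n = 2). Of the 7 neighbouring pairs in that order, Cct4 and Tcp1 alone had overlapping ranges over the libraries. Counting error leaves most of the order unresolved: exact Poisson 95% intervals of neighbours overlapped in 5 of the 7 pairs in replicate 1 and in 6 in replicate 2, and Cct7 against Cct6a was the 1 pair apart in both. In replicate 1, for example, that interval was 293 to 362 RPM for Cct6a and 284 to 353 RPM for Cct5.

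**Figure D1:**
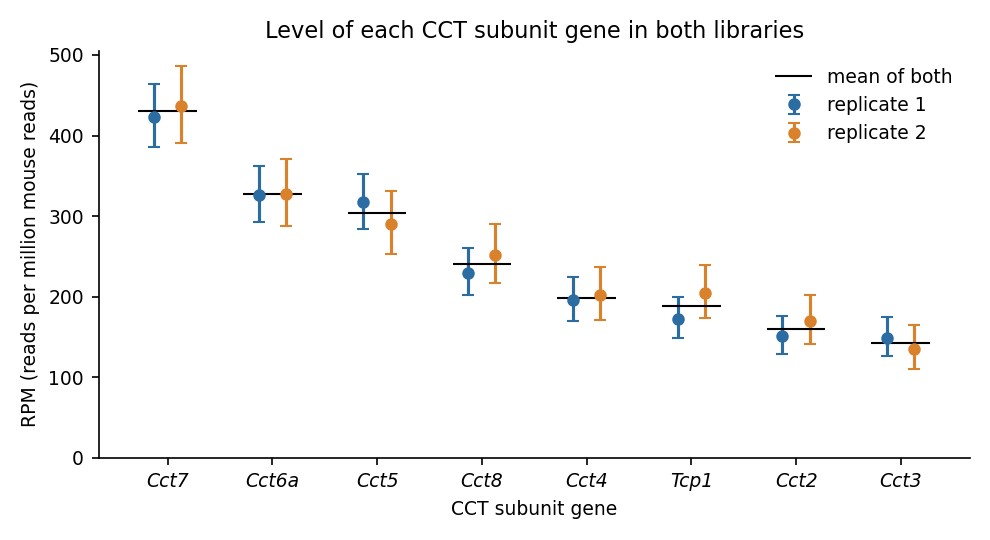
Level of each CCT subunit gene in RPM (vertical axis, linear) in replicate 1 (blue) and replicate 2 (orange), with exact Poisson 95% intervals as bars and the mean of both libraries as a black line. The intervals of both libraries overlap for every gene, and the means run from 430 RPM for Cct7 to 142 RPM for Cct3.

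The largest log2 ratio of replicate 2 over replicate 1 was 0.25, for Tcp1, with an adjusted p of 0.739 in the two-sided exact binomial test with Benjamini-Hochberg adjustment. The ratios of the others were 0.17 for Cct2, 0.14 for Cct8, 0.05 for Cct7, 0.04 for Cct4, 0.01 for Cct6a, -0.12 for Cct5 and -0.14 for Cct3. By this test 0 of 8 CCT genes passed, also at an unadjusted p under 0.05, while 100 of all 11339 genes (0.882%) passed after adjustment and 975 had an unadjusted p under 0.05. The median ratio was 0.04 over the CCT genes and -0.00 over all genes tested. The median size of the ratio, sign aside, was 0.13 for the CCT genes and 0.27 for all genes, most of which had fewer reads. Scaled to the ERCC spike-in RNAs, the median of all genes moved by 0.25 on the log2 scale and all 8 CCT ratios were above 0. With that scaling 94.1% of the genes that passed were higher in replicate 2, against 41.0% with scaling to mouse reads, and again no CCT gene passed. Tcp1 came nearest, at a log2 ratio of 0.49 and an adjusted p of 0.0620 (exact binomial test), against 0.739 with scaling to mouse reads.

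Because every ring holds 1 copy of each subunit, the spread of transcript levels within the complex was set beside that of other complexes with fixed composition. The highest CCT gene exceeded the lowest 3.02-fold, and the SD of log2 RPM over the 8 genes was 0.55. Over the 6 prefoldin genes the SD was 1.01, from 23.3 RPM for Pfdn4 to 168 RPM for Vbp1. Over the 14 genes of the 20S proteasome core it was 0.77, from 51.2 RPM for Psmb4 to 305 RPM for Psma7. CCT had the smallest SD of these complexes in each library, at 0.56 and 0.54, but genes of 1 complex are not replicates and the difference in spread was not tested. The lowest of all these genes, Pfdn4, had 23 and 19 reads, where counting error is larger. The leading models of the CCT genes measure 1853 to 2548 bases, and per kilobase of these the SD was 0.51. Prefoldin and proteasome genes were not taken per kilobase, so the complexes were not compared on that scale. Among the CCT genes, Cct7 stayed highest per kilobase, at 176 ± 3.84 RPM (SD, n = 2), and Cct3 lowest, at 72.0 ± 4.95. Cct5 moved above Cct6a, and Cct2 above Cct4 and Tcp1.

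**Figure D2:**
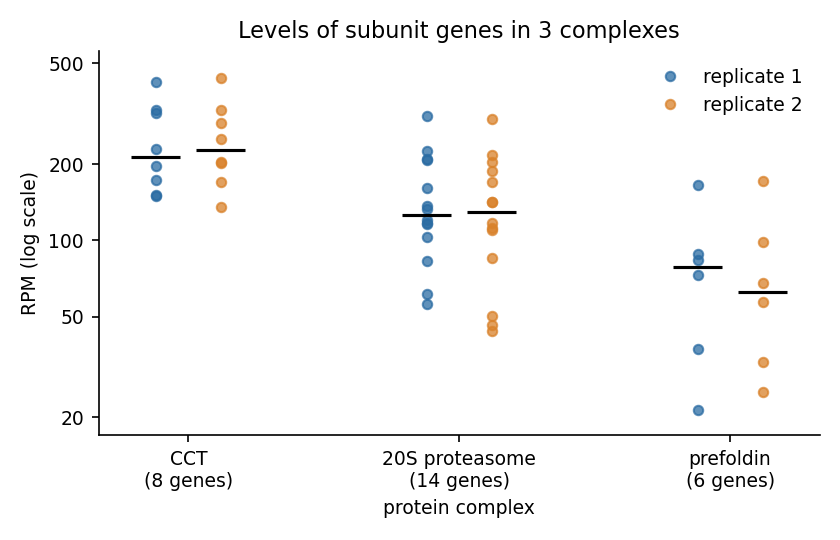
Levels of the subunit genes of CCT, the 20S proteasome core and prefoldin in RPM (vertical axis, log scale), with 1 point per gene and library and the median of each library as a black line. The CCT genes span a narrower range (SD of log2 RPM 0.55) than the proteasome genes (0.77) and the prefoldin genes (1.01), a difference that was not tested.

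The genes that work with CCT were read from a list of 36, of which 33 had 10 or more reads. By the same exact binomial test 1 was higher in replicate 2 and 1 was lower. Over all genes 100 of 11339 (0.882%) passed in either direction. Those that passed in the list encode alpha-tubulins. Tuba1a had a log2 ratio of 0.14 (adjusted p = 0.00102, exact binomial test) and Tuba1b one of -0.22 (adjusted p = 0.0208, exact binomial test). Small ratios can pass at their read numbers, 5392 and 4171 for Tuba1a and 1722 and 1042 for Tuba1b. Cct8, with 246 and 190 reads, also had a ratio of 0.14, at an adjusted p of 0.922 (exact binomial test). Tuba1a overlaps the annotated gene Gm49450, and alpha-tubulin genes are close copies, so how reads were divided between them is uncertain.

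Substrates of CCT were the most abundant of these genes. The 13 substrates had a median of 754 RPM, led by Tuba1a at 5282 ± 359 RPM and the beta-tubulin gene Tubb2a at 4923 ± 153 (SD, n = 2). How reads were divided among the alpha-tubulin or the beta-tubulin genes was not tested. The cytoplasmic actin genes Actg1 and Actb stood at 1941 ± 96.3 and 944 ± 25.6 RPM, each above every CCT gene. Gnb1, a G-protein beta subunit that CCT also folds, was at 655 ± 80.3 RPM. Cdc20, an activator of the anaphase-promoting complex that is made in dividing cells, had 5 reads in each library.

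The co-chaperone genes had lower levels than every CCT gene, except Vbp1, whose mean lay above those of Cct2 and Cct3. Prefoldin genes had a median of 71.5 RPM, with Vbp1 at 168 ± 4.34 and Pfdn5 at 91.1 ± 10.1 (SD, n = 2). Of the modulators, Txndc9 was at 56.2 RPM, Pdcl3 at 32.0 and Pdcl at 26.1, and Pdcl2 had no read. The tubulin folding cofactors ranged from 97.8 RPM for Tbcc and 89.9 for Tbcb down to 6.31 for Tbcd. Hsf1, the heat shock transcription factor, was at 55.2 RPM.

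The relatives of CCT differed widely in level. Hspd1, the chaperonin of the mitochondrial matrix, was at 258 ± 2.59 RPM, within the range of the CCT genes, while its lid Hspe1 was at 53.6 ± 0.709 (SD, n = 2). Mkks, a chaperonin-like protein of the Bardet-Biedl complex, was at 29.6 RPM, and its partners Bbs10 and Bbs12 were at 5.85 and 5.65. Cct6b, the second zeta gene that is known from testis, and Cct8l1 had no read. A count of 0 allows up to 2.80 RPM in replicate 1 and 3.98 RPM in replicate 2, counting error only.

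Apart from Cct6a, the CCT genes were read mostly as annotated transcripts. The authors class a model as annotated, as an incomplete part of an annotated one, as annotated splice sites in another combination, as a model with at least 1 unannotated splice site, or as Genomic. The labels were taken as given and do not always follow these meanings. Several Cct6a chains labelled incomplete hold the unannotated intron, and a Cct7 chain with an unannotated intron was labelled differently in each library. Annotated models held between 74.7 and 94.8% of the reads of the other 7 genes in replicate 1 and between 71.1 and 93.6% in replicate 2. Over all genes the median share was 76.9 and 75.5%. Cct6a had 0 annotated reads of 350, which allows a share of up to 0.857%, and 1 of 247, a share of 0.405%.

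The annotated share was compared between the libraries by a two-sided Fisher's exact test, adjusted over all genes by the Benjamini-Hochberg method. No CCT gene of 8 passed, against 5 of 6189 genes (0.0808%). The CCT gene with the smallest p was Cct5, whose share was 88.8% in replicate 1 and 80.8% in replicate 2 (Fisher's exact test, p = 0.00945, adjusted p = 0.734). Wilson 95% intervals were 85.0 to 91.7% and 75.1 to 85.5% and overlapped.

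Few CCT reads lay on Genomic or incomplete models. Genomic models took 4 and 3 reads of all 8 genes, 0.190 and 0.197%, against 5.80 and 6.15% of all mouse reads. Incomplete models that keep the 3′ end took 3.56 and 2.89% of CCT reads, against 6.92 and 7.09% of all mouse reads. Of the annotated reads, 1583 and 1118 lay on protein-coding models and 2 and 5 on models with a retained intron.

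**Figure D3:**
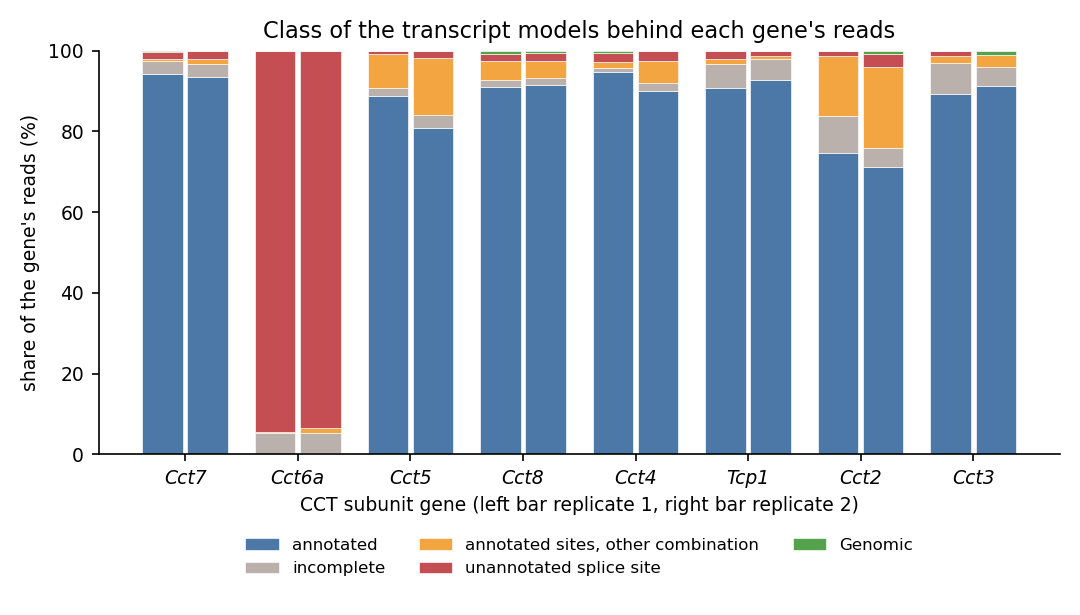
Share of each CCT gene's reads (vertical axis, percent) by the authors' model class, with replicate 1 as the left bar and replicate 2 as the right bar of each pair. Annotated models (blue) hold at least 71.1% in every gene but Cct6a, whose reads lie almost wholly on models with an unannotated splice site (red).

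In 7 of the 8 genes the most abundant chain of splice junctions was an annotated, protein-coding one. Cct7-201, with 12 exons, held 428 and 308 reads, 94.3 and 93.6% of the gene. Cct4-204, with 14 exons, held 199 and 137 reads, 94.8 and 90.1%. Cct8-201, with 15 exons, held 224 and 174 reads, 91.1 and 91.6%.

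Cct3-201, with 14 exons, held 143 and 92 reads, 89.4 and 90.2% of its gene. Tcp1-209, with 12 exons, held 163 and 139 reads, 88.1 and 90.3%. Cct5-201, with 11 exons, held 301 and 176 reads, 88.5 and 80.4%, and Cct2-201, with 16 exons, held 121 and 91 reads, 74.7 and 71.1%. Cct2 was thus the gene with the lowest share on its leading annotated chain in both libraries. The longest open reading frames of these 7 models run from 535 codons in Cct2-201 to 556 in Tcp1-209, so they are of similar length.

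In all, 162 different chains were read from the CCT genes. Of these, 42 were seen in both libraries and 104 had a single read. Of 13 chains with 10 or more reads, none passed the comparison of shares between the libraries by Fisher's exact test after adjustment and 1 had an unadjusted p under 0.05. Over all genes 27 of 11298 chains (0.239%) passed and 659 had an unadjusted p under 0.05. The chain with the unadjusted p under 0.05 was Cct5-201, at an adjusted p of 0.566 in the same Fisher's exact test.

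Cct6a was read from a chain of 12 introns of which 11 are annotated. This chain held 289 of 350 reads in replicate 1, 82.6% with a Wilson 95% interval of 78.2 to 86.2%, and 210 of 247 in replicate 2, 85.0% with an interval of 80.04 to 88.9%. The share did not pass the test between libraries (Fisher's exact test, adjusted p = 1). Its 1 unannotated intron, whose ends are printed above, is 50376 bases long and lies within the annotated one of 50470 bases. These positions and lengths are those of mm10, and whether the assembly is correct at this locus was not tested. Exon 10 gains 61 bases at its 3′ end and exon 11 gains 33 bases at its 5′ end, 94 in all. The longest introns of the 7 other CCT leading chains measure 1236 to 6987 bases.

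The second Cct6a chain, whose GT is also shown above, held 35 and 18 reads, 10.0 and 7.29% of the gene. Its intron adds 105 bases to exon 10 and leaves exon 11 as annotated. Among reads that span exons 10 and 11, incomplete models included, the intron of the leading chain was used by 302 of 338 in replicate 1 (89.3%, Wilson 95% interval 85.6 to 92.2%) and by 220 of 238 in replicate 2 (92.4%, interval 88.4 to 95.2%). The intron of the second chain was used by 35 and 18 of these, 10.4 and 7.56%. The annotated intron was used by 0 of 338 and 0 of 238, which allows a share of up to 0.888 and 1.26%.

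**Figure D4:**
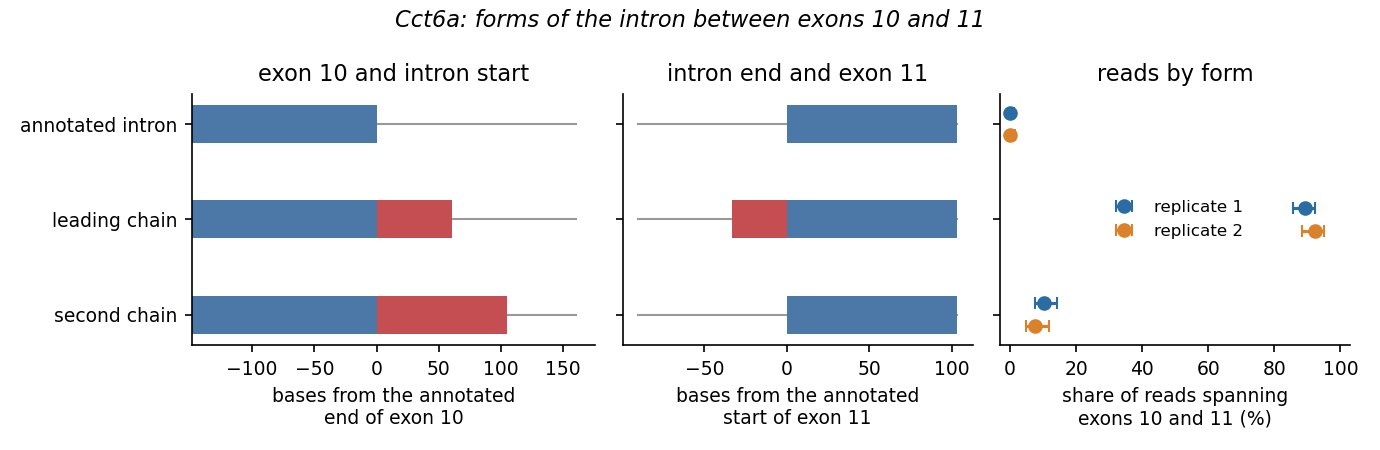
Forms of the Cct6a intron between exons 10 and 11. The left and middle panels show annotated exon bases (blue) and added bases (red) by distance in bases from the annotated exon ends, and the right panel shows the share of spanning reads (percent) per library with Wilson 95% intervals. The leading chain, with 61 and 33 added bases, takes 89.3 and 92.4% and the annotated intron takes 0.

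The annotation of Cct6a differs from that of the other subunits. GENCODE M21 types the gene as a processed transcript, while all other CCT genes are typed protein-coding, and RefSeq on GRCm38.p6 lists Cct6a as protein-coding too. Of 83 genes with 10 or more reads that GENCODE M21 types as a processed transcript, 5 are protein-coding in RefSeq, and Cct6a had the most reads of these, 597 against 101 for the next, Ptpmt1. The longest open reading frame of Cct6a-202 has 412 codons and meets its stop codon at base 24 of exon 11. That of Cct6a-201, which places 2 more exons of together 137 bases between exons 10 and 11, has 532 codons, close to the other subunits. In Cct6a-201 the smallest gap between neighbouring exons is 33 bases, as many as the leading chain adds to exon 11. The bases added to exon 11 lie at chr5:129844937-129844969, and no transcript sequence used here covers them. Whether the gap lies at these positions was not read out. The bases printed above as the end of the leading chain's intron lie directly before them. Those printed bases come from Cct6a transcript sequences, so an annotated Cct6a exon covers them. The leading chain thus leaves out as intron some bases that an annotated exon holds. The intron lengths, the added bases and the share of annotated reads all rest on the mm10 sequence and gene models here. The 3 introns that only Cct6a-201 has, against Cct6a-202, were in 0 reads of either library. Of the added bases, 94 leaves a remainder of 1 when divided by 3 and 105 leaves 0, while 137 leaves 2. Counted from the ATG that both annotated frames share, a remainder of 2 is needed to enter exon 11 in the frame of Cct6a-201. Neither read chain has it, and the second keeps the frame of Cct6a-202 into exon 11. Part of the added bases lies outside the transcript sequences used here, so the read chains were not translated.

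Cct6a is not alone in leading with an unannotated chain, but few genes do so to this extent. Of 3700 spliced genes with 100 or more reads, 374 (10.1%) had an unannotated chain as their most abundant, and 26 of these had over 80% of their reads on it. In 68 of 3768 genes with 100 or more reads (1.80%) annotated models held at most 1% in both libraries. Cct6a belongs to both groups. The small nucleolar RNA gene Snora15 lies at chr5:129794546-129794676, so it overlaps the bases added to exon 10 in both chains.

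Cct2 and Cct5 each had a second chain at 5% or more of their reads in both libraries, and both differ from the leading chain in the first exon alone. RefSeq lists 2 start sites for each of the genes. The genomic sequences before these starts, of which the downstream ones lie within the first intron of the leading model, on the minus strand of GRCm38.p6, are printed to show how the regions differ. Capitals mark matches to GGGCGG (GC box), CCGGAAG (ETS core) or GAANNTTC (heat shock element core) on either strand.
Cct2, before the upstream start, chr10:117063853-117064102: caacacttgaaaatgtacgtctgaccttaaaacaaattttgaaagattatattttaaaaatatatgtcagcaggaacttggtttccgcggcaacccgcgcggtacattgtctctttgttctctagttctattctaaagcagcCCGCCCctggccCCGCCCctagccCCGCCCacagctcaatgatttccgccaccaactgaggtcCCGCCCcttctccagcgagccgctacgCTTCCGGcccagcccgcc
Cct2, before the downstream start, chr10:117063376-117063625: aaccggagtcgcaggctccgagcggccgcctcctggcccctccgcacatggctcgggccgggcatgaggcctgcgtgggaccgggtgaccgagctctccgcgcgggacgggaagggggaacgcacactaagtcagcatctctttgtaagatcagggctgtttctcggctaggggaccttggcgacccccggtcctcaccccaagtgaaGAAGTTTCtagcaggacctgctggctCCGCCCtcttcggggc
Cct5, before the upstream start, chr15:31601847-31602096: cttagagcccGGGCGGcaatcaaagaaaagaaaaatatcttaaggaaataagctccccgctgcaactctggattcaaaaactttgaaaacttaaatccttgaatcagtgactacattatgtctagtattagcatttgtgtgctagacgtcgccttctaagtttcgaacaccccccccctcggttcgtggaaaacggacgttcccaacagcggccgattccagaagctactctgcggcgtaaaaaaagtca
Cct5, before the downstream start, chr15:31601540-31601600: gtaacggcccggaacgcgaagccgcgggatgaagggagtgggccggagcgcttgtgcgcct

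In Cct2 the upstream first exon, joined by the intron at chr10:117063051-117063705, was in 122 of 162 reads in replicate 1 (75.3%, Wilson 95% interval 68.1 to 81.3%) and 98 of 128 in replicate 2 (76.6%, interval 68.5 to 83.1%). The downstream first exon, joined by the intron at chr10:117063051-117063159, was in 25 reads (15.4%, interval 10.7 to 21.8%) and 21 reads (16.4%, interval 11.0 to 23.8%). The 5′-most model with the downstream exon began at position 117063375, which is the second RefSeq start. A model's start can be that of the annotation: both outer ends of the leading Cct6a chain, itself unannotated, are the annotated ones. The match therefore does not show where the reads began. The chain that joins it to all later exons held 23 and 20 reads, 14.2 and 15.6%, with no difference past the test (Fisher's exact test, adjusted p = 1). The 5′-most model of an incomplete chain with 8 and 1 reads began at the same position, and its first exon covers that first intron. Where the single reads of this chain began was not read.

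In Cct5 the upstream first exon, joined by the intron at chr15:31598061-31601600, was in 308 of 340 reads in replicate 1 (90.6%, Wilson 95% interval 87.0 to 93.3%) and 184 of 219 in replicate 2 (84.0%, interval 78.6 to 88.3%). The downstream first exon, joined by the intron at chr15:31598061-31601301, was in 25 reads (7.35%, interval 5.03 to 10.6%) and 28 reads (12.8%, interval 8.996 to 17.9%). The 5′-most model with it began at position 31601539, again a RefSeq start and with the same limit. The whole chain held 25 and 27 reads, and its share did not pass the test (Fisher's exact test, p = 0.0532, adjusted p = 0.853).

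In both genes the first introns are annotated, in the protein-coding models Cct2-205 and Cct5-205, and the combination with the full set of later exons is not. The longest open reading frames of Cct2-201 and Cct5-201 begin in the upstream first exon, at positions 117063708 and 31601705. The downstream first exons do not hold these start codons. The other CCT genes showed little of the kind: Cct8 had 5 and 1 reads from the first exon of Cct8-207, and Cct4 had 1 and 4 reads from that of Cct4-203.

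**Figure D5:**
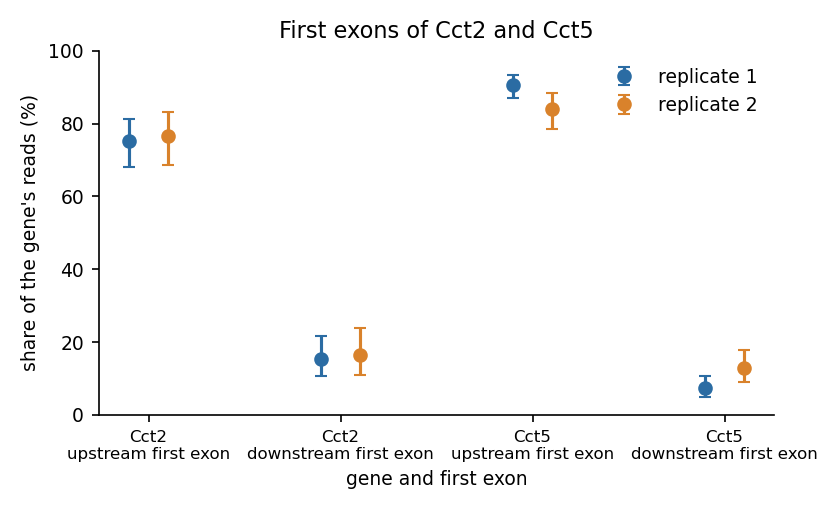
Share of the reads of Cct2 and Cct5 (vertical axis, percent) that join the upstream or the downstream first exon, in replicate 1 (blue) and replicate 2 (orange), with Wilson 95% intervals. The downstream exon takes 15.4 and 16.4% of Cct2 reads and 7.35 and 12.8% of Cct5 reads.

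RefSeq start windows, which run from 250 bases before to 50 bases after a start, were found for 7 of the 8 genes, 9 windows in all. On either strand, GGGCGG was present in 8 of the 9, against 35.7% of 32851 windows of the same length. CCAAT was in 4 of the 9, against 37.4%, and CCGGAAG in 3, against 8.86%. GAANNTTC was in 1, the window of the downstream Cct2 start, against 7.86%. CACGTG and TATAAA were in none of the 9, against 7.15 and 13.6%. A match is a run of letters and no measurement of binding.

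Several CCT genes have neighbours on the other strand that share exonic positions with them. Reads on the opposite strand over the exons of Tcp1 numbered 54 and 45, nearly all from Mrpl18 and Acat3. Those over Cct6a numbered 28 and 12, from Psph, those over Cct8 numbered 19 and 18, with Usp16, and those over Cct7 numbered 6 and 2, from Pradc1. The tables hold each model on 1 strand, and whether the library protocol marks strand is not given in the sources used here. No read of another gene lay on the same strand over the exons of any CCT gene.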

How the data were processed

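Long-read RNA sequencing of 2 libraries of 1 group was analysed. The deposited values are raw counts of reads for each transcript model, which the authors made on mm10 with GENCODE M21, per the file headers. The source field of the models names TALON; the aligner is not given in the sources used here. No correction for duplicate reads was made here, so intervals and limits cover counting error only. The 8 members, the gene lists and the tests were chosen with earlier results of these data known.

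Counts were summed per gene and scaled to 1000000 mouse reads (1072344 and 753520), ERCC reads left out. Model names outside the annotation differ between libraries, so chains were matched by chromosome, strand and intron positions. For genes with 10 or more reads, a two-sided exact binomial test took the library totals as the expected ratio. Shares of annotated reads (20 or more reads in each library) and of splice chains (10 or more reads) were compared by Fisher's exact test, each with Benjamini-Hochberg adjustment over all features at 0.05. Log2 ratios use a pseudocount of 0.5 reads. No model test between conditions was possible with 1 group. Limits of a count of 0 use 3 counts, and shares have Wilson 95% intervals. The scripts were tested on simulated counts. Named genes were all 8 members, the leading annotated model and up to 2 further chains at 5% or more in both libraries, the Cct6a chain and a pathway list; the chains of Cct8 and Cct4 at lower shares were named after their values were seen.

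Sequences came from GENCODE M21 transcripts and RefSeq start windows of GRCm38.p6; in 7 of the 9 windows of CCT genes these share bases with the leading model, all equal, and the windows of Tcp1 and of the downstream Cct2 start share none and were not compared. A protein table was not used here. Python 3.11.15 with pandas 2.3.3 and scipy 1.17.1 and R 4.3.3 with edgeR 4.0.16 and DESeq2 1.42.0 (scaling factors as alternatives) were used. The alternatives covered scaling, read filters, pseudocount, model classes and leaving out a library.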

Additional observations from a re-analysis of the deposited data

How the results depend on the processing

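No CCT gene or chain tested passed between libraries in any alternative run, for reads, annotated share or chain share; the tests of reads and annotated share held all 8 genes, except that with annotated models only 7 were, without Cct6a. Over all genes, the 100 that passed became 323 with spike-in scaling, 176 without Genomic models and 35 with annotated models only. The 5 genes that passed for the annotated share became 80 without Genomic models, and the 27 chains became 49 with full chains alone as the total and 13 with a minimum of 50 reads. The cause was not tested. The log2 ratio of Cct6a turned to -0.0187 with TMM factors and to -0.0166 with DESeq2 size factors, and with spike-in scaling those of Cct3 and Cct5 turned to 0.11 and 0.12. With annotated models only, which leave fewer reads by construction, the levels fell to 117 RPM for Cct2, 128 for Cct3, 184 for Cct4, 258 for Cct5, 0.664 for Cct6a, 404 for Cct7 and 220 for Cct8, and the SD of log2 RPM over the other 7 genes became 0.61. Leaving out a library, the SD over 8 genes ranged from 0.544 to 0.564, and per kilobase, an alternative chosen after seeing the data, it was 0.51. Counting every model with the unannotated intron, the Cct6a share became 87.7%. No paired analysis was possible because there is 1 group. Depth limits these data to the leading chains: most CCT chains had a single read.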
